A study of Mus musculus with 3 samples.

Results

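The nuclear genome of the mouse encodes most subunits of the 5 oxidative phosphorylation (OXPHOS) complexes, and the transcripts of these genes were measured in sorted natural killer (NK) cells of lung and blood. Genes were chosen by symbol: Nduf genes of the a, b, c, s and v series without assembly factors, Sdha to Sdhd, every Uqcr gene, Cox4 to Cox8 genes with a letter a, b or c, and every Atp5 gene. Of 85 genes with such a symbol, 80 had at least 100 counts summed over all analysed cells, out of 11964 genes with this minimum and 25906 genes listed. They comprise 36 genes of complex I, 4 of complex II, 8 of complex III, 15 of complex IV and 17 of complex V. The 5 genes under the minimum were Cox8b with 3 counts, Cox7b2 and Ndufa4l2 with 1 each, and Cox8c and Ndufb11b with 0. The symbol rule leaves out 5 genes whose products belong to the same system (Cox4i1, Ndufab1, Cyc1, Cycs and Atpif1), and these are given separately.

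OXPHOS takes place in the inner mitochondrial membrane. Complexes I and II pass electrons from NADH and succinate to ubiquinone, complex III passes them to cytochrome c and complex IV to oxygen, and complexes I, III and IV pump protons that complex V, the ATP synthase, uses to make ATP. Complexes I, III, IV and V also contain subunits made from mitochondrial DNA, whereas complex II is encoded in the nucleus alone and doubles as an enzyme of the tricarboxylic acid cycle. In NK cells, respiration supplies ATP at rest and is raised, with glycolysis, after prolonged cytokine stimulation.

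From wild-type female mice 9 weeks old, live cells positive for NK1.1 and NKp46 were sorted out of lung and blood. The mice were naive, or had received 100000 PyMT cells (a mouse mammary tumor line that seeds the lung) intravenously 6 h or 14 days before. Each time point is 1 droplet library in which the cells of several mice were pooled, and lung and blood cells carried different hashtags, so that there were 3 libraries and 6 groups with no replicates. In order of naive lung, naive blood, 6 h lung, 6 h blood, 14-day lung and 14-day blood the groups held 3676, 4367, 4680, 2746, 3575 and 2069 cells. Because a time point is 1 library, time and library cannot be told apart and differences over time have no test, whereas lung and blood were measured together in each library. Every interval given below covers counting error only.

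The fewest counts were summed in 14-day blood (16936897) and the most in 6 h lung (35922737), with medians per cell between 5909.5 and 7524 unique molecules (UMIs). The NK label was met in all groups, with the 8 NK genes checked (Ncr1, Klrb1c, Nkg7, Klrk1, Gzma, Prf1, Eomes and Tbx21) summing to 15534 CPM (counts scaled to the same total in each group) in 14-day lung and to between 19000.3 and 22992 CPM elsewhere. Markers of other cell types summed to between 97.0 CPM in naive lung and 235.1 CPM in 14-day lung, where the hemoglobin genes Hba-a1 and Hbb-bs took 68.2 CPM against at most 0.272 in the other groups. This sum leaves out the genes of type 1 innate lymphoid cells (ILC1) on the marker list, which NK cells can share and which summed to 45.1 and 37.3 CPM in naive lung and blood, 43.4 and 46.5 at 6 h, and 134 and 90.5 at 14 days, and their part in the 14-day values was not tested. Lyz2, a monocyte and macrophage gene, had 89.3 CPM in 14-day blood and 0.600 in naive blood. Ribosomal protein genes took 12.9% and 13.7% of counts in naive lung and blood and 22.5% and 18.5% at 14 days. Between libraries, 7 to 16 cell barcodes were shared. Barcodes with both hashtags were left out and no doublet caller was run.

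Levels are given as CPM of summed UMIs. Each molecule is counted once near its 3′ end, so levels are not divided by transcript length. A difference between groups is given as the log2 ratio of CPM, and a log2 ratio of 0.3 (1.23-fold) in either direction was used as the limit of size. Many OXPHOS genes have near-identical processed pseudogenes elsewhere in the genome, and reads that fit more than 1 place may be lost or split, so the levels of single genes are less certain than their ratios. Gene positions are those of GENCODE M21 on GRCm38.

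Promoters were examined first for sequences that the members share. A window from 250 bases before to 50 bases after the transcription start (RefSeq, GRCm38.p6) was matched for 67 of the 80 members. The binding sequence of nuclear respiratory factor 1 (NRF1), an activator of respiratory chain genes, reads GCGCA and GCGC with 1 base of any kind between them, and it was present on either strand in 17 of 67 members (25.4%), in 12.3% of the 9011 tested genes with a window and in 5.19% of 27025 genes in all. These 17 comprised 7 of 32 matched members of complex I, 2 of 3 of complex II, 1 of 5 of complex III, 1 of 12 of complex IV and 6 of 15 of complex V. AAGATGGCG, the core bound by YY1, was found in 7 members (10.4%) against 3.92% of tested genes, and TCAAGGTCA, bound by estrogen-related receptors, in 2 members (2.99%) against 0.311%. The ETS family sequence CCGGAAGT was found in 5 members (7.46%), against 9.98% of tested genes and 4.31% of all genes. For the SP1 box GGGCGG it was 27 members (40.3%), against 68.6% and 38.2%. For both, members were thus below the tested genes but above all genes. CCAAT and TATAAA were about as frequent in members (43.3% and 8.96%) as in tested genes (43.7% and 8.69%). A match is a description of letters and not evidence of binding.

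The stretches of 30 bases around the NRF1 letters are shown for 5 members that recur below because their ratios differed in direction, and the stretch with the ETS letters for Uqcrh, which had no NRF1 letters. Each is written 5′ to 3′ in the direction of its gene, all 6 on the minus strand, with the motif letters in capitals. For Uqcrh the capitals are the ETS letters read on the opposite strand. The sequences come from chr15:102671070-102671099, chr5:108434430-108434459, chr13:74350241-74350270, chr9:50603909-50603938, chr5:115349056-115349085 and chr4:116075071-116075100 in the order listed, and the motifs begin 42, 50, 10, 79, 117 and 11 bases before the start.
Atp5g2: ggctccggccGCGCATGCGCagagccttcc
Atp5k: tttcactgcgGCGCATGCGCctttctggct
Sdha: cgacacccgcgcgactcggtGCGCAAGCGC
Sdhd: tcgctggggtGCGCACGCGCggtggcagcg
Cox6a1: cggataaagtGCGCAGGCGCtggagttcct
Uqcrh: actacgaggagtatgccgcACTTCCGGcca
Atp5g2 and Atp5k carried the identical palindromic NRF1 letters, and Sdha had 3 such matches in its window before the start. Members with and without the NRF1 letters had similar medians. The median of the 17 members with them, as a log2 ratio at 14 days over naive was 0.13 in lung and 0.23 in blood, against 0.15 and 0.25 for the 50 members without them, and at 6 h it was 0.17 and 0.19 against 0.18 and 0.19.

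Together the 80 genes supplied 1.47% of all counts in naive lung and 1.55% in naive blood, 1.65% and 1.75% at 6 h, and 1.68% and 1.84% at 14 days. The order was thus naive, 6 h and 14 days in both tissues, with blood above lung at each time, and the 6 h and 14-day lung shares lay closest together. Per cell the shares overlapped widely. After each cell was thinned to 3000 UMIs, the median cell held 1.43% in naive lung and 1.53% in naive blood, 1.63% and 1.73% at 6 h, and 1.63% and 1.80% at 14 days, and 90% of naive lung cells lay between 0.933% and 2.13%. Without thinning the medians were 1.45% and 1.52% in naive, 1.63% and 1.73% in 6 h, and 1.64% and 1.78% in 14-day lung and blood. Thinning left out 86 and 75 naive cells, 40 and 20 cells at 6 h, and 38 and 6 at 14 days.

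**Figure D1:**
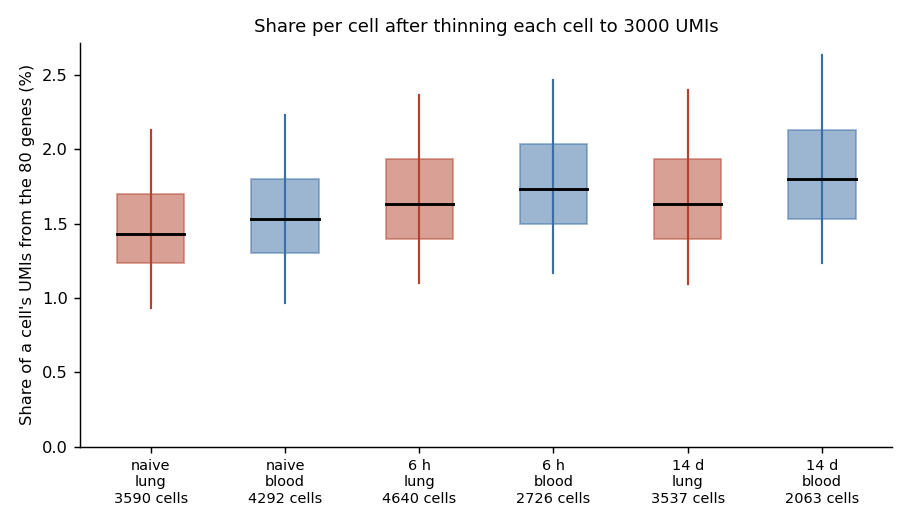
Share of a cell's UMIs that came from the 80 nuclear-encoded OXPHOS genes after thinning to 3000 UMIs (y axis, percent) in the 6 groups (x axis, with the number of cells). The black bar is the median, the box spans the central 50% and the line the central 90% of cells. Medians run from 1.43% in naive lung to 1.80% in 14-day blood, while the boxes of all groups overlap.

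Most members were modestly higher after tumor cell injection, at a time when most other genes were slightly lower. At 6 h over naive, 73 of 80 members in lung and 76 in blood had a ratio above 0, against 38.1% and 39.6% of all tested genes, and 7 and 4 had a ratio below 0, against 61.9% and 60.4%. The median log2 ratio of the members was 0.17 in lung and 0.19 in blood, beside -0.069 and -0.055 for all genes. Differences were small, since 7 members in lung (8.75%) were higher by the limit, beside 7.67% of all genes, and 1 was lower, beside 11.4%. In blood 5 members (6.25%) were higher by the limit, beside 7.64%, and 1 was lower, beside 10.6%.

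At 14 days over naive, 66 members in lung and 72 in blood had a ratio above 0, against 33.5% and 33.4% of all genes, and 14 and 8 had a ratio below 0, against 66.5% and 66.6%. The medians were 0.14 and 0.24, beside -0.17 and -0.14 for all genes, so that relative to the median gene the members stood higher by 0.31 and 0.38. In lung 18 members (22.5%) were higher by the limit, beside 14.1% of all genes, and 0 were lower, beside 36.9%. In blood 23 members (28.8%) were higher by the limit, beside 9.95%, and 0 were lower, beside 30.5%. With ribosomal protein and mitochondrial genes left out of the totals, the 14-day medians were 0.31 in lung and 0.33 in blood. The 6 h and 14-day ratios share their naive libraries, so that a deviation of the naive library would enter both.

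OXPHOS transcripts are abundant and short, and these properties went with the ratios of genes at large in opposite directions. Genes at 50 CPM or more in the higher group had medians below those of all tested genes. These medians were -0.25 in 14-day lung, -0.20 in 14-day blood, -0.092 in 6 h lung and -0.074 in 6 h blood. When genes were restricted to 50 CPM or more in the higher of both groups, 9.06% were higher by the limit in 14-day lung and 5.23% in 14-day blood, beside 16 of 72 and 21 of 73 members at this level. The corresponding values at 6 h were 2.42% in lung with 5 of 72 members and 1.97% in blood with 4 of 74. The median transcript of a member was 1003 bases long, against 3279.5 for all tested genes, and 62 members lay in the shortest quintile of transcripts. All genes of that quintile had median log2 ratios of 0.052 in 14-day lung, 0.081 in 14-day blood, 0.067 in 6 h lung and 0.067 in 6 h blood, where its members had 0.15, 0.24, 0.20 and 0.19. In the longest quintile the medians of all genes were -0.33, -0.31, -0.15 and -0.13. Members of the shortest quintile thus stood above all genes of that quintile, by less than members stood above all tested genes. The quintile spans 47 to 1903 bases, so length was not matched within it, and length and level were not matched together.

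**Figure D2:**
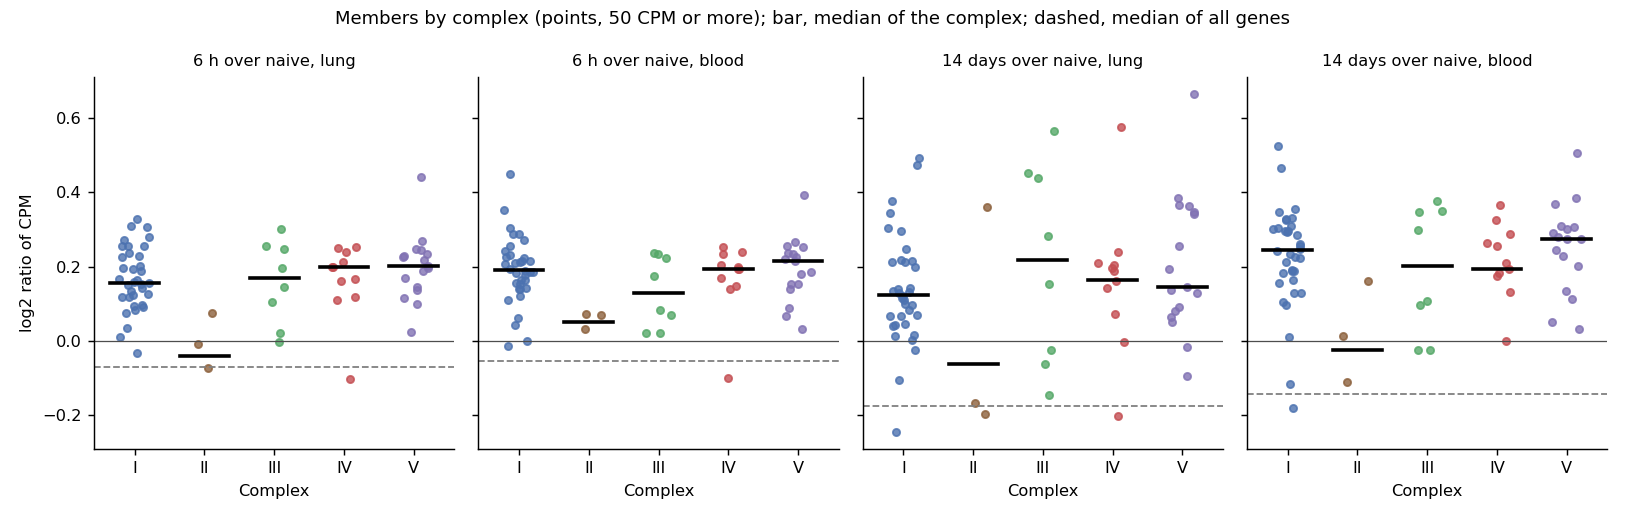
Each point is 1 member of 50 CPM or more in either group, placed by complex (x axis) and log2 ratio of CPM (y axis) for 6 h and 14 days over naive in lung and blood. The black bar is the median over all members of the complex and the dashed line the median of all 11964 genes. Points of complexes I, III, IV and V lie mostly above 0 in all 4 comparisons, those of complex II lie around 0, and the spread between members is wider at 14 days than at 6 h in lung.

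Complex I, the NADH dehydrogenase, had summed levels of 4368, 4593, 4909.6, 5244, 4903 and 5492 CPM in naive lung, naive blood, 6 h lung, 6 h blood, 14-day lung and 14-day blood. Both 6 h groups and both 14-day groups lay above both naive groups. The log2 ratio of the sums over naive was 0.17 (95% interval 0.16 to 0.18) in lung and 0.19 (95% interval 0.18 to 0.20) in blood at 6 h, and 0.17 (95% interval 0.16 to 0.18) and 0.26 (95% interval 0.25 to 0.27) at 14 days. Ratios above 0 were found for 35 of 36 members in both tissues at 6 h, beside 38.1% and 39.6% of all genes in lung and blood. At 14 days they were found for 33 in lung (beside 33.5%) and 34 in blood (beside 33.4%). Past the limit, all of them higher, were 3 members in each tissue at 6 h (8.33%, beside 7.67% and 7.64% of all genes in lung and blood), and 6 in lung (16.7%, beside 14.1%) and 11 in blood (30.6%, beside 9.95%) at 14 days.

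The 29 accessory subunits, which surround the catalytic core and stabilise it, had a median ratio at 14 days of 0.13 in lung and 0.26 in blood, while the 7 core subunits had 0.11 and 0.13. Ndufa12 (ENSMUSG00000020022, chromosome 10 from 94198720 to 94221443), an accessory subunit of the peripheral arm, had 66.4 CPM in naive lung, 69.0 in naive blood, 83.3 in 6 h lung, 94.1 in 6 h blood, 92.1 in 14-day lung and 85.0 in 14-day blood. It was lowest in both naive groups, and its ratio over naive was 0.33 (95% interval 0.24 to 0.42) in lung and 0.45 (95% interval 0.36 to 0.54) in blood at 6 h, and 0.47 (95% interval 0.38 to 0.56) and 0.30 (95% interval 0.20 to 0.40) at 14 days. It was the only member past the limit in all 4 comparisons with naive among members with at least 50 CPM.

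Other accessory subunits differed at 14 days more than at 6 h. Ndufa6 (ENSMUSG00000022450, chromosome 15 from 82350140 to 82354322), a LYR motif protein that anchors an acyl carrier protein to the complex, had 175 CPM in naive lung, 176 in naive blood, 187 in 6 h lung, 194 in 6 h blood, 246 in 14-day lung and 242 in 14-day blood. Its 14-day levels stood apart from the other 4 groups, with ratios over naive of 0.49 (95% interval 0.44 to 0.55) in lung and 0.47 (95% interval 0.41 to 0.52) in blood, against 0.098 and 0.14 at 6 h. Ndufb1, a small subunit of the membrane arm, had 217 CPM in naive lung, 212 in naive blood, 236 in 6 h lung, 243 in 6 h blood, 275 in 14-day lung and 305.7 in 14-day blood, with 14-day ratios of 0.34 and 0.53. GENCODE M21 types the gene entry counted for Ndufb1 as a bidirectional promoter lncRNA. Whether all its counts are subunit mRNA was not tested. By contrast, Ndufs6, a zinc-binding accessory subunit, had 102 CPM in naive lung, 106 in naive blood, 126 in 6 h lung, 135 in 6 h blood, 111 in 14-day lung and 129 in 14-day blood. Here both 6 h groups were high, with ratios of 0.31 in lung and 0.35 in blood, and at 14 days only blood kept a ratio near this size (0.30, against 0.12 in lung). Ndufc2 and Ndufc1, paired subunits of the membrane arm, likewise had their largest lung ratio at 6 h, 0.31 and 0.24, with 0.22 and 0.083 at 14 days. The accessory subunits with the highest summed levels, Ndufa13 and Ndufb7, ranged from 296 to 391 and from 226 to 291 CPM, both lowest in naive lung and highest in 14-day blood.

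Core subunits of complex I carry the flavin and the iron-sulfur clusters, and their ratios differed in direction. Ndufv1, which binds NADH and the flavin, had 32.6 CPM in naive lung, 29.9 in naive blood, 35.0 in 6 h lung, 35.0 in 6 h blood, 44.5 in 14-day lung and 40.0 in 14-day blood, so that the 14-day groups were highest, with ratios of 0.45 (95% interval 0.32 to 0.58) in lung and 0.42 (95% interval 0.28 to 0.57) in blood. Ndufs1 (ENSMUSG00000025968, chromosome 1 from 63143596 to 63176833), the largest iron-sulfur subunit, had 46.7 CPM in naive lung, 54.2 in naive blood, 45.7 in 6 h lung, 53.7 in 6 h blood, 39.4 in 14-day lung and 47.9 in 14-day blood. It was lower in lung than in blood at each time and lowest in 14-day lung, with ratios over naive of -0.24 (95% interval -0.37 to -0.12) in lung and -0.18 (95% interval -0.30 to -0.056) in blood. Further core subunits had 14-day ratios of 0.14 and 0.19 for Ndufs3, 0.096 and 0.11 for Ndufs7, 0.11 and 0.098 for Ndufs8, and 0.039 and 0.13 for Ndufv2, in lung and blood.

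Scaled to totals, complex II, the succinate dehydrogenase, was the only complex without a higher sum after injection beyond counting error. Its 4 genes summed to 315, 330.1, 309, 339.7, 303 and 327 CPM in the same order of groups. The log2 ratio over naive was -0.029 (95% interval -0.071 to 0.014) in lung and 0.041 (95% interval -0.0021 to 0.085) in blood at 6 h, and -0.054 (95% interval -0.099 to -0.0093) and -0.012 (95% interval -0.059 to 0.036) at 14 days. As a share of all OXPHOS counts of the 80 genes, complex II took 2.15% in naive lung and 2.13% in naive blood, 1.87% and 1.94% at 6 h, and 1.81% and 1.78% at 14 days. Taken from the median of all genes, the median ratio of its members over naive was 0.029 and 0.11 at 6 h, and 0.11 and 0.12 at 14 days, in lung and blood. With only 4 genes, single members weigh heavily on the sum and the median.

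**Figure D3:**
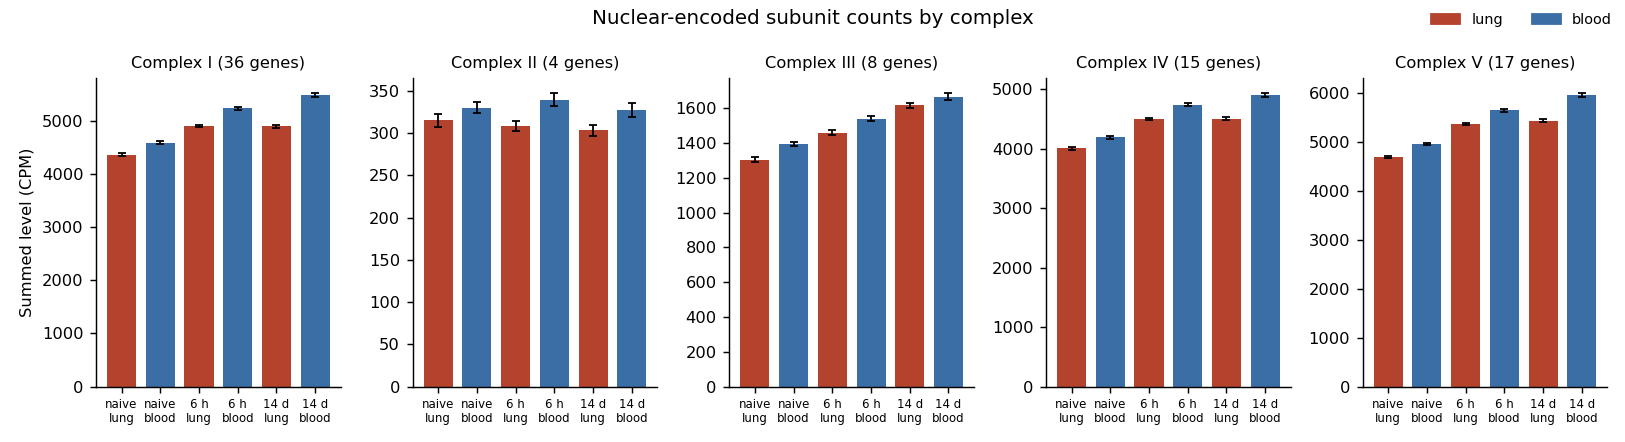
Summed levels of the nuclear-encoded subunits of each complex (y axis, CPM, starting at 0, with a scale of its own in each panel) in the 6 groups (x axis). Bars are red for lung and blue for blood, and lines give the 95% counting intervals. Complexes I, III, IV and V are lowest in naive lung and highest in 14-day blood, while the bars of complex II range between 303 and 339.7 CPM without this order.

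The subunits of complex II split by role. Sdha (ENSMUSG00000021577, chromosome 13 from 74322254 to 74350280), the flavoprotein that oxidises succinate, had 112 CPM in naive lung, 109.7 in naive blood, 107 in 6 h lung, 112 in 6 h blood, 98.1 in 14-day lung and 102 in 14-day blood. It was lowest in the 14-day groups, with ratios over naive of -0.20 (95% interval -0.27 to -0.12) in lung and -0.11 (95% interval -0.19 to -0.025) in blood. Sdhb, the iron-sulfur subunit, had 109 CPM in naive lung, 118 in naive blood, 109 in 6 h lung, 124 in 6 h blood, 97.5 in 14-day lung and 119 in 14-day blood, lower in lung than in blood at each time. The membrane anchors went the other way or stayed level. Sdhd had 46.7 CPM in naive lung, 53.6 in naive blood, 49.2 in 6 h lung, 56.3 in 6 h blood, 59.9 in 14-day lung and 59.9 in 14-day blood and a 14-day ratio of 0.36 (95% interval 0.25 to 0.47) in lung and 0.16 (95% interval 0.046 to 0.27) in blood, while Sdhc stayed between 44.0 and 49.1 CPM in all groups. Both Sdha and Sdhd hold the NRF1 letters printed above.

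Complex III, the cytochrome bc1 complex, summed to 1303, 1395, 1460.0, 1541, 1618 and 1668 CPM, lowest in naive lung and highest in 14-day blood. The log2 ratio over naive was 0.16 (95% interval 0.14 to 0.18) in lung and 0.14 (95% interval 0.12 to 0.16) in blood at 6 h. At 14 days it was 0.31 (95% interval 0.29 to 0.33) in lung and 0.26 (95% interval 0.24 to 0.28) in blood, and the lung value was the largest of the 5 complexes. That order rested on Uqcrh, since the other 7 genes summed to 869.6 CPM in naive and 977.6 in 14-day lung, a log2 ratio of 0.17 (95% interval 0.14 to 0.20), below that of complex V. The share of complex III in the OXPHOS counts was 9.65% in 14-day lung and between 8.79% and 9.09% in the other groups.

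Within complex III the small accessory subunits and the large core proteins differed. The core proteins Uqcrc1 and Uqcrc2, large proteins on the matrix side, had 14-day ratios of -0.14 and -0.062 in lung, and -0.023 and -0.025 in blood. Taken from the median of all genes, they had 0.029 and 0.11 in lung, and 0.12 and 0.12 in blood. The 5 accessory subunits had a median of 0.44 in lung and 0.35 in blood. Uqcrh (ENSMUSG00000063882, chromosome 4 from 116066965 to 116075071), the hinge protein that contacts cytochrome c1, had 433 CPM in naive lung, 459 in naive blood, 466 in 6 h lung, 486 in 6 h blood, 641 in 14-day lung and 595 in 14-day blood. The 14-day groups were highest and the only ones in which lung lay above blood. Its ratio over naive was 0.56 (95% interval 0.53 to 0.60) in lung and 0.38 (95% interval 0.34 to 0.41) in blood at 14 days, against 0.10 and 0.082 at 6 h. Uqcr10 had 135 CPM in naive lung, 152 in naive blood, 166 in 6 h lung, 179 in 6 h blood, 185 in 14-day lung and 194 in 14-day blood, with ratios of 0.30 and 0.24 at 6 h and 0.45 and 0.35 at 14 days. Uqcr11 had 14-day ratios of 0.44 and 0.35. Uqcrb, a subunit near the ubiquinone site, departed from this, with 201 CPM in naive lung, 215 in naive blood, 239 in 6 h lung, 253 in 6 h blood, 198 in 14-day lung and 229.6 in 14-day blood, high at 6 h and back at the naive level in 14-day lung (-0.024 (95% interval -0.08 to 0.032)). Uqcrfs1, the Rieske iron-sulfur protein, had ratios of 0.28 and 0.11 at 14 days.

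Complex IV, the cytochrome c oxidase, draws its catalytic subunits from mitochondrial DNA, and its nuclear members surround them. The 15 members summed to 4001, 4188, 4499, 4739, 4503 and 4897 CPM, and the log2 ratio over naive was 0.17 (95% interval 0.16 to 0.18) in lung and 0.18 (95% interval 0.17 to 0.19) in blood at 6 h, and 0.17 (95% interval 0.16 to 0.18) and 0.23 (95% interval 0.21 to 0.24) at 14 days. Cox8a, the member of the complex with the highest level, ranged from 755 CPM in naive lung to 906 in 14-day blood. Cox7c, the second in level, ranged from 497 to 608 CPM. The muscle and testis forms were close to absent, with Cox6a2 between 2.14 and 3.03 CPM, Cox6b2 between 1.11 and 1.45, and Cox7a1 between 0.383 and 1.42. Their common counterparts Cox6a1, Cox6b1 and Cox7a2 had at least 207, 333 and 316 CPM in every group.

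Single members of complex IV stood out at 14 days. Cox7a2l (ENSMUSG00000024248, chromosome 17 from 83501918 to 83517330), also known as SCAF1, is a relative of Cox7a2 described as a factor that joins complexes III and IV into supercomplexes. Whether its protein does so in these mice was not tested. Cox7a2l had 211 CPM in naive lung, 216 in naive blood, 196 in 6 h lung, 202 in 6 h blood, 314 in 14-day lung and 279 in 14-day blood. Its levels were slightly below naive at 6 h and above all earlier groups at 14 days, and 14-day lung was highest. The ratio over naive was -0.10 (95% interval -0.15 to -0.049) in lung and -0.099 (95% interval -0.15 to -0.044) in blood at 6 h, and 0.58 (95% interval 0.53 to 0.63) and 0.37 (95% interval 0.31 to 0.42) at 14 days. Cox7a2 itself had 316 CPM in naive lung, 321 in naive blood, 363 in 6 h lung, 369.8 in 6 h blood, 353 in 14-day lung and 363 in 14-day blood. Of the counts of both genes together, Cox7a2l took 40.0% and 40.3% in naive lung and blood, 35.1% and 35.3% at 6 h, and 47.1% and 43.5% at 14 days.

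Cox6a1, Cox5b and Ndufa4 showed another pattern, with a gap between the tissues at 14 days. Cox6a1 had 238 CPM in naive lung, 255 in naive blood, 258 in 6 h lung, 283 in 6 h blood, 207 in 14-day lung and 255 in 14-day blood, so that 14-day lung was the lowest group, with a ratio over naive of -0.20 (95% interval -0.25 to -0.15) in lung and -0.00026 (95% interval -0.054 to 0.054) in blood. Cox5b, a zinc-binding subunit, had 299 CPM in naive lung, 315 in naive blood, 343 in 6 h lung, 361 in 6 h blood, 314 in 14-day lung and 396 in 14-day blood and ratios of 0.073 in lung and 0.33 in blood. Ndufa4, named after complex I but a subunit of complex IV, had 421 CPM in naive lung, 455 in naive blood, 497 in 6 h lung, 542 in 6 h blood, 419.6 in 14-day lung and 498 in 14-day blood. Its 6 h groups were higher than naive, by 0.24 in lung and 0.25 in blood, and its 14-day lung level differed from naive by less than the counting error (-0.0031 (95% interval -0.042 to 0.036)). Cox5b-ps, a pseudogene that the symbol rule includes, had at most 1.12 CPM.

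Complex V, the ATP synthase, summed to 4695, 4968, 5368, 5658, 5442 and 5967 CPM, with all 4 groups after injection above both naive groups. The log2 ratio over naive was 0.19 (95% interval 0.18 to 0.20) in lung and 0.19 (95% interval 0.18 to 0.20) in blood at 6 h, and 0.21 (95% interval 0.20 to 0.22) and 0.26 (95% interval 0.25 to 0.28) at 14 days. At 6 h all 17 members had a ratio above 0 in both tissues, beside 38.1% and 39.6% of all genes in lung and blood. At 14 days all 17 did in blood (beside 33.4%) and 15 in lung (beside 33.5%). The exceptions were the catalytic subunits of the F1 head. Atp5b (ENSMUSG00000025393, chromosome 10 from 128083273 to 128090391), the beta subunit that holds the catalytic sites, had 293 CPM in naive lung, 296 in naive blood, 324 in 6 h lung, 336 in 6 h blood, 275 in 14-day lung and 307 in 14-day blood. It was highest at 6 h, and at 14 days its ratio over naive was -0.093 (95% interval -0.14 to -0.046) in lung and 0.052 (95% interval 0.0025 to 0.10) in blood. Atp5a1, the alpha subunit, lay between 292 and 319 CPM in all groups, with 14-day ratios of -0.016 and 0.032, and its level was higher in lung than in blood at each time.

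Other parts of the enzyme were higher at 14 days. The 3 genes of the central stalk that turns inside the F1 head (Atp5c1, Atp5d and Atp5e) had a median ratio of 0.36 in lung and 0.31 in blood. Atp5e, the epsilon subunit and the member of the complex with the highest level, had 579.8 CPM in naive lung, 614 in naive blood, 687 in 6 h lung, 713 in 6 h blood, 746 in 14-day lung and 794 in 14-day blood. The 5 small membrane subunits, some of which shape enzyme dimers, had medians of 0.26 and 0.30. Among them Atp5k, subunit e, had 181 CPM in naive lung, 195 in naive blood, 208 in 6 h lung, 229 in 6 h blood, 229.8 in 14-day lung and 276 in 14-day blood, and its ratio at 14 days was 0.35 (95% interval 0.29 to 0.40) in lung and 0.51 (95% interval 0.45 to 0.56) in blood. The peripheral stalk, which holds the head in place, had lower medians of 0.098 and 0.22. Its member with the highest level, Atp5h, ranged from 507 to 628 CPM.

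The c ring, through which protons pass, is encoded by Atp5g1, Atp5g2 and Atp5g3, whose precursors differ in the targeting sequence but yield the same mature protein. Atp5g2 (ENSMUSG00000062683, chromosome 15 from 102662864 to 102672352) had 235 CPM in naive lung, 269 in naive blood, 279 in 6 h lung, 313 in 6 h blood, 372 in 14-day lung and 351 in 14-day blood. Lung lay below blood in naive and 6 h cells and above it at 14 days, when the ratio over naive was 0.66 (95% interval 0.62 to 0.71) in lung and 0.38 (95% interval 0.33 to 0.43) in blood, the largest in lung among members with at least 50 CPM. Atp5g1 (ENSMUSG00000006057, chromosome 11 from 96068852 to 96075670) had 163 CPM in naive lung, 185 in naive blood, 221 in 6 h lung, 243 in 6 h blood, 186 in 14-day lung and 219 in 14-day blood. Here the 6 h groups were highest within each tissue, with ratios of 0.44 (95% interval 0.39 to 0.50) in lung and 0.39 (95% interval 0.34 to 0.45) in blood, against 0.19 and 0.25 at 14 days. Atp5g3 had 150.5 CPM in naive lung, 173 in naive blood, 177 in 6 h lung, 203 in 6 h blood, 191 in 14-day lung and 209 in 14-day blood and ratios between 0.23 and 0.34 in the 4 comparisons. As a share of the counts of all 3 genes, Atp5g2 took 42.9% in both naive groups, 41.2% in lung and 41.3% in blood at 6 h, and 49.7% and 45.0% at 14 days. The share of Atp5g1 was 29.7% and 29.5% in naive, 32.7% and 32.0% at 6 h, and 24.9% and 28.1% at 14 days. The composition of the c ring transcripts thus differed between 6 h and 14 days, while their sum was higher than naive at both.

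**Figure D4:**
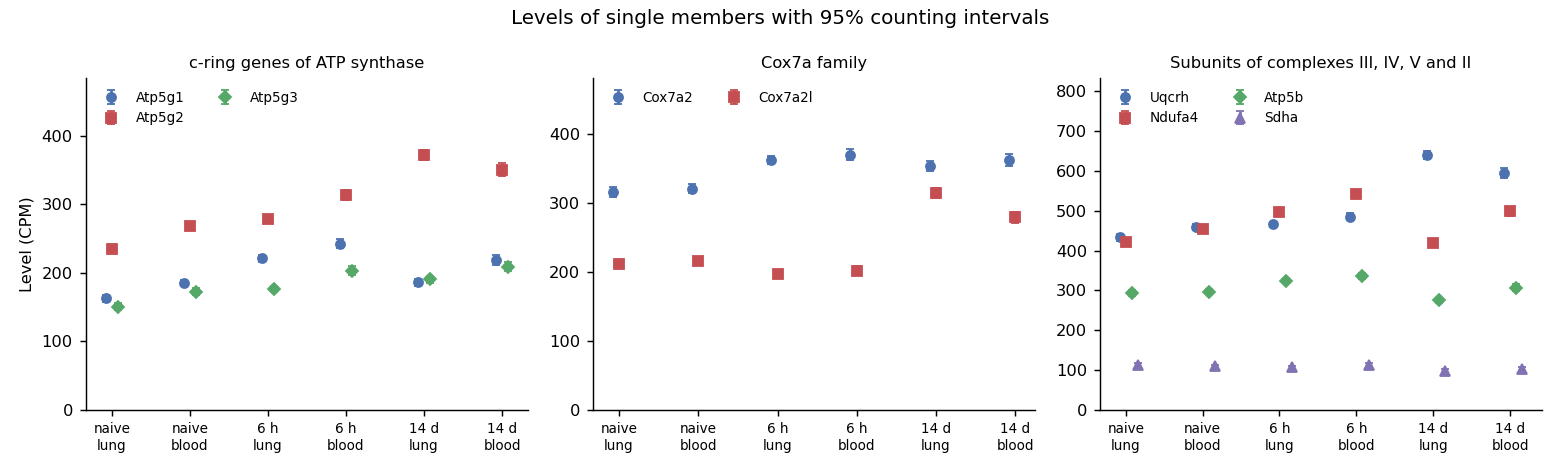
Levels (y axis, CPM) of single members in the 6 groups (x axis), with 95% counting intervals that are often smaller than the symbols. The left panel shows the 3 c-ring genes, the middle panel Cox7a2 and Cox7a2l, and the right panel Uqcrh, Ndufa4, Atp5b and Sdha. Atp5g2, Cox7a2l and Uqcrh are highest in 14-day lung, at 372, 314 and 641 CPM, while Atp5g1 and Ndufa4 are highest in 6 h blood, at 243 and 542 CPM.

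Across the 5 complexes, the 14 core or catalytic subunits had smaller ratios than the 61 other subunits. Cox7a2l, the 3 tissue forms Cox6a2, Cox6b2 and Cox7a1, and Cox5b-ps were left out here. The medians of the core or catalytic subunits were 0.097 in lung and 0.071 in blood at 6 h, and 0.012 and 0.075 at 14 days. The other subunits had 0.20, 0.20, 0.15 and 0.26 in the same order. Across members the ratio and the length of the gene had a Spearman correlation of -0.25 in lung and -0.33 in blood at 14 days, and of -0.34 and -0.28 at 6 h (80 genes of the same libraries). The part of gene length in this gap was not tested.

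Between the tissues, members were slightly lower in lung than in blood, as were genes at large. The median log2 ratio of lung over blood was -0.093 in naive cells, -0.092 at 6 h and -0.16 at 14 days, beside -0.10, -0.11 and -0.11 for all genes. The ratio was below 0 for 74, 77 and 68 of 80 members, beside 64.7%, 66.1% and 64.8% of all genes, and above 0 for 6, 3 and 12 members, beside 35.3%, 33.9% and 35.2%. Nearly all of these differences were small. In naive cells 3 members (3.75%) were lower in lung by the limit, beside 24.4% of all genes, and 0 were higher, beside 15.3%. At 6 h 2 members were lower (2.5%, beside 24.2%) and 1 was higher (1.25%, beside 14.1%). The members past the limit in naive and 6 h cells were Cox7a1, Cox5b-ps, Cox6b2 and Cox6a2, none above 3.03 CPM. At 14 days 4 members were lower (5.0%, beside 24.3%) and 0 higher (beside 14.8%), namely Cox7a1, Cox5b-ps, Cox5b and Cox6a1.

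The tissue difference was also tested over the 3 libraries, each of which holds both tissues at a time of its own. With the library as a block and the same totals, edgeR's quasi-likelihood test at an adjusted p of 0.05 called 10 of 80 members lower in lung (beside 18.6% of all genes) and 0 higher (beside 9.57%), and 28 were lower and 0 higher at an unadjusted p of 0.05. Among those called were the complex I core subunits Ndufs1, with a fitted log2 difference of -0.24 (adjusted p = 0.0229), Ndufs8 with -0.21 (adjusted p = 0.0270) and Ndufv2 with -0.18 (adjusted p = 0.0387). With TMM scaling, which moved the median of all genes from -0.11 to -0.010, 0 members were called in either direction, beside 7.55% of all genes lower and 12.3% higher, with 2 members lower and 3 higher at an unadjusted p of 0.05. The number called was 0 without the naive or without the 6 h library. Without the 14-day library it was 48 (1 higher and 47 lower), beside 2172 higher and 4770 lower of all 11964 genes. The fit takes the difference to be the same at all times. For the counts at an unadjusted p, no count of all genes is given.

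At 14 days the distance between the tissues differed from member to member more than before. Cox5b had a lung over blood ratio of -0.33 (95% interval -0.38 to -0.29) at 14 days, against -0.079 in naive and -0.072 in 6 h cells. Cox6a1 had -0.30 (95% interval -0.36 to -0.25), against -0.10 and -0.13. On the other side, Cox7a2l had 0.17 (95% interval 0.12 to 0.22), against -0.038 and -0.04. The number of members with a counting interval wholly above 0 was 1 of 80 in naive cells (beside 19.2% of all genes), 1 at 6 h (beside 17.8%) and 6 at 14 days (beside 16.8%). Intervals wholly below 0 were found for 49, 58 and 60 members, beside 39.1%, 39.8% and 36.5% of all genes. An interval is narrower for a gene with more counts, and most members are abundant. By complex, the medians at 14 days were -0.19 for complex I, -0.026 for II, -0.14 for III, -0.15 for IV and -0.16 for V.

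The subunits encoded by mitochondrial DNA did not follow the nuclear ones at 14 days. Summed over 13 such genes, the log2 ratio over naive was 0.10 (95% interval 0.095 to 0.11) in lung and 0.077 (95% interval 0.072 to 0.083) in blood at 6 h, and -0.063 (95% interval -0.069 to -0.058) and -0.0052 (95% interval -0.011 to 0.0011) at 14 days. The nuclear members together had 0.17, 0.18, 0.19 and 0.25 in the same order, and the median of all genes was -0.069, -0.055, -0.17 and -0.14. At 14 days the sums of the mitochondrially encoded genes thus lay between the median gene and the nuclear members. The number of nuclear counts per mitochondrially encoded count, an internal ratio that does not depend on the totals, was 0.744 in naive lung, 0.820 in naive blood, 0.782 in 6 h lung, 0.880 in 6 h blood, 0.888 in 14-day lung and 0.975 in 14-day blood. It was higher at 14 days than at the earlier times within each tissue and higher in blood than in lung at each time. Cells were kept at no more than 6% mitochondrial counts, and the medians per cell lay between 2.84% and 3.29%.

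In lung the gap was widest in complex I, while in blood it was about as wide in complex V. The 7 mitochondrially encoded subunits of complex I summed to a 14-day ratio of -0.27 (95% interval -0.29 to -0.26) in lung and -0.081 (95% interval -0.094 to -0.067) in blood, against 0.17 and 0.26 for the 36 nuclear ones, and nuclear counts per mitochondrial count were 0.948 in naive and 1.29 in 14-day lung. mt-Nd4 had ratios of -0.45 (95% interval -0.48 to -0.43) and -0.32 (95% interval -0.35 to -0.29). In complex III, mt-Cytb had -0.089 and 0.044. In complex IV the 3 catalytic subunits had 0.03 and 0.049, and in complex V the 2 subunits had -0.056 and -0.081, against 0.21 and 0.26 for the 17 nuclear ones. Droplet libraries primed on poly(A) capture mitochondrial transcripts with unlike efficiency, so the number of nuclear counts per mitochondrially encoded count is read between groups and not as a comparison of levels.

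**Figure D5:**
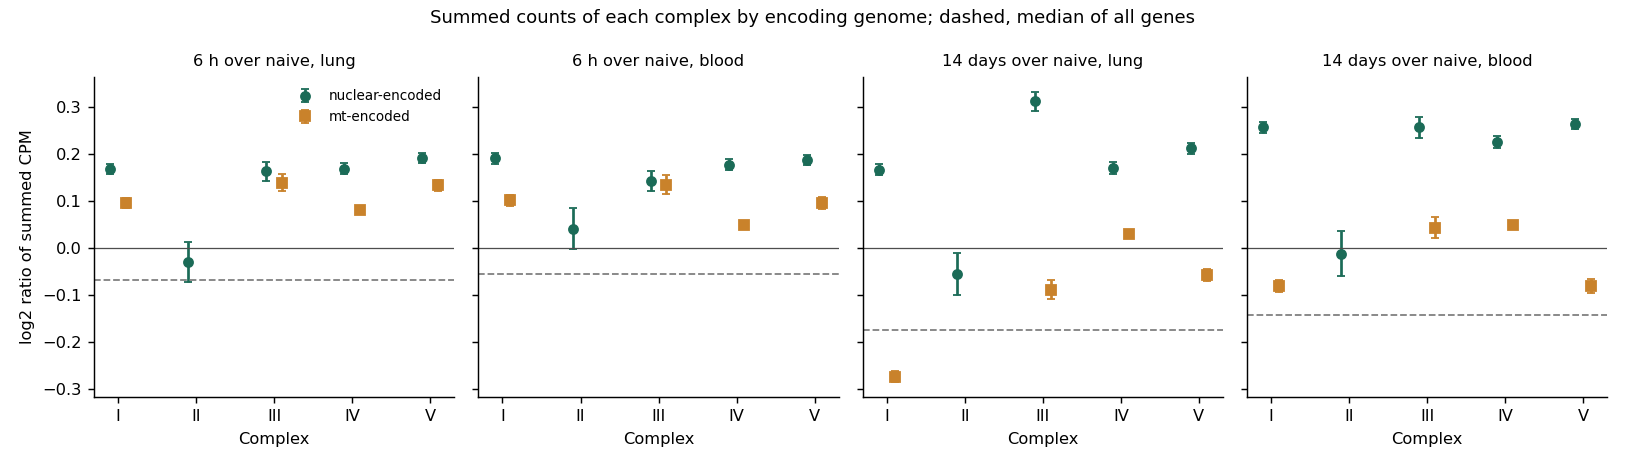
Log2 ratio over naive of summed CPM (y axis) for the nuclear-encoded (green circles) and mitochondrially encoded (orange squares) subunits of each complex (x axis), with 95% counting intervals. The dashed line is the median of all genes. At 6 h both kinds lie above 0 in complexes I, III, IV and V (complex II has no mitochondrially encoded subunit), while at 14 days in lung complex I reads 0.17 for the nuclear and -0.27 for the mitochondrially encoded genes.

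Genes outside the symbol rule but of the same system had ratios of a like size. Cox4i1, a large regulatory subunit of complex IV, had 602 CPM in naive lung, 622 in naive blood, 662 in 6 h lung, 653 in 6 h blood, 739 in 14-day lung and 763 in 14-day blood and 14-day ratios of 0.30 in lung and 0.30 in blood. Cycs, the electron carrier cytochrome c, had 152 CPM in naive lung, 156 in naive blood, 193 in 6 h lung, 213 in 6 h blood, 157 in 14-day lung and 190.2 in 14-day blood, highest in 6 h blood, with ratios of 0.34 (95% interval 0.28 to 0.40) and 0.45 (95% interval 0.39 to 0.51) at 6 h and 0.044 and 0.29 at 14 days. Over all 5 genes the median was 0.27 in lung and 0.17 in blood at 6 h, and 0.22 and 0.18 at 14 days. Of 45 assembly factors, which build the complexes without staying in them, 7 were higher and 4 lower by the limit in 14-day lung (beside 14.1% and 36.9% of all genes), 5 and 0 in 14-day blood (beside 9.95% and 30.5%), 5 and 0 in 6 h lung (beside 7.67% and 11.4%), and 7 and 0 in 6 h blood (beside 7.64% and 10.6%), with medians between 0.073 and 0.089. Most of them were at low levels.

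The differences in the members were also found within classes of NK cells. Cells were divided by the presence of UMIs of Cd27 and Itgam (CD11b), which mark stages of NK cell maturation. In the 4 classes the log2 ratio of the summed member counts over naive lay between 0.15 and 0.22 in lung and between 0.17 and 0.29 in blood at 14 days, and between 0.14 and 0.21 in lung and at 0.18 in blood at 6 h. With each cell thinned to 3000 UMIs before the division, the 14-day values lay between 0.068 and 0.18 in lung and between 0.22 and 0.27 in blood. Members with a ratio above 0 numbered between 52 and 66 of 80 in the 4 classes of 14-day lung, against 32.9% to 38.5% of all genes, and between 64 and 74 in those of 14-day blood, against 32.7% to 40.9%. Cells with Cd27 and without Itgam had member levels close to those of cells with Itgam and without Cd27, with ratios between -0.024 in 14-day blood and 0.049 in naive blood.

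Cells with UMIs of both Itga1 (CD49a) and Pmepa1, a gene induced by TGF-β, made up 605 of 3575 cells in 14-day lung (16.9%) and 24 of 3676 in naive lung (0.653%). In 14-day lung they had 15850.4 CPM of the members together, against 16992 in the other cells, a log2 ratio of -0.10 (95% interval -0.11 to -0.090), and the median over members was -0.11, beside -0.029 for all genes. Of the 80 members, 21 were higher in these cells, against 45.6% of all genes. When these cells were left out, the 14-day lung median over naive was 0.17, with 68 members above 0 and 19 past the limit, and the lung over blood median at 14 days was -0.13. Whether a cell has such UMIs depends on its depth.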

How the data were processed

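The authors deposited UMI counts of genes and hashtags, for every barcode of 3 libraries, without normalization, so cells had not yet been called. The file headers name Cell Ranger 7.1.0 and the labels 7.0.1, and the labels name Seurat 5.0 for the later steps. Whether intronic reads were counted is not given in the sources used here. Gene positions came from GENCODE M21 on GRCm38, an earlier release than the one the methods name.

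A barcode was taken as a cell if 800 to 5000 genes were detected and mitochondrial genes took no more than 6% of its counts. A cell was assigned to lung or blood when at least 90% of its hashtag counts were B0304 or B0306, taken in the order in which the methods list tissues and tags. This left out 342, 158 and 141 kept barcodes of the naive, 6 h and 14-day libraries (4.08%, 2.08% and 2.44%). Both-tag barcodes went out with them, and doublets within a tissue stayed in.

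Counts were summed per library and tissue and scaled to CPM over all genes. Levels have exact Poisson and ratios exact conditional 95% intervals, which cover counting error only, and shares are of summed counts. With 1 library per time point no test over time was made. Lung and blood were tested over the 3 libraries by edgeR's quasi-likelihood test with the library as a block, 2 residual degrees of freedom and Benjamini-Hochberg adjustment over 11964 genes. In simulated counts for this test, 70% of 100 genes with a log2 difference of 0.5 and 99% of 100 with 1 were found. There 34 unchanged genes (0.289%) were called, so the simulated list held a larger share of false calls than the threshold states. Far more genes were called in the data (1145 higher and 2230 lower) than were changed in the simulation. The share of false calls in the real list therefore cannot be read from it. In simulated counts for 14 days over naive in lung, with 200 of 11964 genes given known ratios, 95.09% of intervals held the true ratio. Lists are described by their median and by the number of genes past a log2 ratio of 0.3, beside all genes with at least 100 summed counts.

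Named members are the 2 with the highest level in each complex, up to 5 largest and 5 smallest ratios past the limit per comparison among members with at least 50 CPM, alternative forms of one subunit, the complex I core, complex II, and Atp5a1 and Atp5b. Other members are named as examples of their role, as flagged values, or for low counts, and these were chosen after their values were seen. The members and all lists were chosen with earlier results of these data known. Alternatives changed the totals, the filters, the hashtag split, the depth, the weight of cells, free RNA, doublets, other cell types and the minimum. The edgeR test, the values for cells with Itga1 and Pmepa1 UMIs left out and the background at 50 CPM were added after seeing the data. Python 3.11.15, numpy 2.4.6, pandas 2.3.3, scipy 1.17.1, scikit-image 0.26.0 and matplotlib 3.10.9, and R 4.3.3 with edgeR 4.0.16, were used. Single values of 1 member that this rule names are not reported here, while medians, counts and sums include it. Protein sequences and the endothelial and human data were not analysed here.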

Additional observations from a re-analysis of the deposited data

Results flagged for a closer look

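In these results the CPM ratios of 2 groups had opposite signs under the same contrast. Each time point is 1 library, and none of the differences was tested. The signs depend on the scaling to totals, so values taken from the median of all genes are given as well.

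Atp5b, the catalytic beta subunit of the ATP synthase, was lower in lung at 14 days over naive, with a log2 ratio of -0.0933, while its ratio in blood was 0.052 (95% interval 0.0025 to 0.10). Taken from the median of all genes, it had 0.080 in lung and 0.195 in blood, with the same sign in both.

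Uqcrh, the hinge protein of complex III, was higher in lung than in blood at 14 days, with a log2 ratio of 0.106, while the same ratio was -0.082 in naive and -0.06 in 6 h cells. Atp5g2, a c-ring gene, had 0.0859 at 14 days against -0.19 in naive and -0.17 in 6 h cells. Ndufa12, an accessory subunit of complex I, had 0.115 at 14 days against -0.18 at 6 h, and -0.055 in naive cells. Taken from the median of all genes, Uqcrh was above 0 at each time, with 0.019 in naive, 0.047 in 6 h and 0.215 in 14-day cells. In the same order Atp5g2 had -0.094, -0.061 and 0.195, and Ndufa12 had 0.045, -0.069 and 0.224.

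Each group is 1 sample, and no sample was set against others of its group.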

How the results depend on the processing

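Each time point is 1 library, so no replicate could be left out of a comparison over time. For lung over blood over the 3 libraries, edgeR with the library as a replicate block called 10 members, against 0 with TMM scaling, 0 without the block and between 0 and 48 when 1 library was left out, all run after seeing the data. In the fit that called 48 members, 2172 of all 11964 genes were called higher and 4770 lower. Over 15 alternatives, the medians at 6 h and 14 days over naive stayed above 0 in every one. The medians of lung over blood stayed below 0, except that they reversed, when taken from the all-gene median, to 0.0080 in naive and 0.015 in 6 h cells, with -0.051 at 14 days, and the 14-day and 6 h medians over naive became 0.31 and 0.38, and 0.24 and 0.24, in lung and blood. The cause of the other moves was not tested. In the sentences below values are in the order lung over blood in naive, 6 h and 14-day cells, 14 days over naive in lung and blood, and 6 h over naive in lung and blood, and a value that moved by less than the counting error is left out.

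With totals that omit mitochondrial and ribosomal protein genes the medians were -0.10 (naive) and -0.085 (14 days) for lung over blood, and 0.31, 0.33, 0.20 and 0.21 over naive. Thinned to 3000 UMIs they were -0.083 and -0.17, and 0.13, 0.22, 0.19 and 0.20. With free RNA subtracted at 5% of counts they were -0.10, -0.099 and -0.17, and 0.16, 0.27, 0.18 and 0.20. Leaving out cells with a UMI of another cell type gave -0.11 (6 h) and -0.18, and 0.15, 0.26 and (6 h blood) 0.20. At most 4% mitochondrial counts gave 0.15 and 0.25 at 14 days. Without the 5% of cells with the most UMIs, 14-day blood was at 0.23 and 6 h lung at 0.18. The mean of per-cell CPM gave -0.17 for 14-day lung over blood and 0.18 and 0.20 at 6 h. Members of at least 50 CPM gave 0.18 in 6 h lung. Without cells with UMIs of Itga1 and Pmepa1, an alternative chosen after seeing the data, lung over blood at 14 days was at -0.13 with 2 members past the limit, and 14-day lung over naive at 0.17.

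The members past a log2 ratio of 0.3 in either direction numbered 3, 3, 4, 18, 23, 8 and 6, and the shares of all genes beside them are given above. For the alternatives to these counts no such shares are given here. Those counts therefore show only how the number of members moved. A limit of 0.5 gave 1, 2, 2, 4, 3, 0 and 0. Taken from the median of all genes, there were 1 (lung over blood, naive) and 45, 57, 23 and 14 over naive. With totals that omit mitochondrial and ribosomal protein genes there were 2 (lung over blood, 14 days) and 45 and 44 at 14 days over naive. For lung over blood at 14 days there were 14 with thinning, 9 with free RNA subtracted and 7 without cells with a UMI of another cell type. Thinning gave 12 in 6 h blood. In 6 h lung there were 5 with at most 4% mitochondrial counts, with the mean of per-cell CPM and with members of at least 50 CPM, which also gave 0, 0 and 2 for lung over blood. At most 10% mitochondrial counts, 1000 to 4000 genes, the Otsu split and no minimum of counts moved no median or count. Of single genes, Cox6a2 reversed to 0.040 for lung over blood at 6 h with thinning, and Cox7a1 to -0.41 for 6 h blood over naive without cells with a UMI of another cell type, both at most 3.03 CPM. Abundant members also changed sign when taken from the median of all genes. In 14-day lung over naive 76 of 80 members then lay above 0, where 66 did by totals, with Atp5b at 0.080, Uqcrb at 0.149 and Sdhb at 0.0076. Ndufs1, Sdha, Cox6a1 and Cox5b-ps stayed below 0.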

Other observations

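Lists of genes that control or adjoin the respiratory chain were set beside all genes in the same way. Of 15 regulators of mitochondrial genes, 7 were lower and 1 higher by the limit in 14-day lung over naive, beside 36.9% lower and 14.1% higher of all genes, and 5 were lower and 0 higher in 14-day blood, beside 30.5% and 9.95%. For a list of 15 genes these counts are near the shares of all genes. Nrf1, whose binding letters are given for the promoters above, had 145 CPM in naive lung, 155 in naive blood, 129 in 6 h lung, 142 in 6 h blood, 103 in 14-day lung and 114 in 14-day blood, with 14-day ratios of -0.49 (95% interval -0.56 to -0.42) in lung and -0.45 (95% interval -0.53 to -0.37) in blood. Gabpb1, a subunit of the ETS family factor GABP, had -0.68 and -0.40. Myc, a growth regulator, was the member of this list that was higher in 14-day lung, with 16.9 CPM in naive lung, 24.4 in naive blood, 22.9 in 6 h lung, 27.0 in 6 h blood, 41.2 in 14-day lung and 24.6 in 14-day blood. Ppargc1a, a coactivator of mitochondrial genes, was higher in lung than in blood at each time, with ratios of 1.68 in naive, 1.53 in 6 h and 1.16 in 14-day cells, at 14.6 CPM in naive lung.

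Of 15 genes of the tricarboxylic acid cycle outside complex II, 0 were higher and 2 lower by the limit in 14-day lung (beside 14.1% and 36.9% of all genes), and 0 and 1 in 14-day blood (beside 9.95% and 30.5%). Their medians were -0.052 and -0.0062, beside -0.17 and -0.14 for all genes. Mitochondrial ribosomal protein genes had medians of 0.15 in lung and 0.13 in blood at 14 days and 0.17 and 0.13 at 6 h over 78 genes, beside 0.14, 0.24, 0.17 and 0.19 for the OXPHOS members, so that the lung medians were close and the blood medians lower. Cytosolic ribosomal protein genes differed far more at 14 days, with 78 of 81 higher by the limit in lung and 73 in blood, and medians of 0.78 and 0.42. Of 16 glycolysis genes, 5 were higher and 2 lower in 14-day lung (beside the same 14.1% and 36.9%) and 3 and 0 in 14-day blood (beside 9.95% and 30.5%). Hk2, which phosphorylates glucose, had 3.37 CPM in naive lung, 3.80 in naive blood, 5.87 in 6 h lung, 3.90 in 6 h blood, 7.49 in 14-day lung and 3.19 in 14-day blood.

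Sdhaf1, an assembly factor of complex II, had 11.2 CPM in naive lung, 14.5 in naive blood, 14.8 in 6 h lung, 19.9 in 6 h blood, 32.8 in 14-day lung and 21.8 in 14-day blood, and its ratio over naive was 1.54 (95% interval 1.34 to 1.74) in 14-day lung and 0.59 (95% interval 0.38 to 0.79) in 14-day blood. It was named after its values were seen. Cycling cells, with UMIs of at least 3 of 9 cycle genes, numbered 10 to 25 a group and had member sums between 19174 CPM in naive lung and 24110 CPM in 14-day blood.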
